A study of Homo sapiens with 74 samples.

Results

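TEX13A peaks were taken from the 2 Cut&Run lists titled TEX13A, one per biological replicate, each called against a V5 mock IP. Replicate 1 held 1669 peaks and replicate 2 held 1028 peaks, 2697 of the 92122 peaks in the 72 lists of the 36 zinc finger proteins (ZFPs) profiled. All TEX13A peaks were used, and peaks of the lists that overlapped by at least 1 bp were merged into 232 regions found in both replicates. Of these, 3 lay on exons of TEX13 family genes or on EEF1A1, and the other 229 are described here by place, nearest gene, fold and sharing with the other ZFPs. In Cut&Run an antibody brings micrococcal nuclease to the protein of interest on chromatin, so that DNA near the protein is cut out and sequenced. The fold of a peak is its MACS2 enrichment over the mock IP at the summit, and a region's fold in a replicate is the highest fold of its peaks there.

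The cells were HEK293T, a human embryonic kidney line, transfected with a plasmid that carried the TEX13A open reading frame with a C-terminal V5 tag under an EF1-alpha promoter. The mock IP came from HEK293T cells without plasmid, treated with the same V5 antibody, and not from cells with an unrelated tagged protein. Cells were taken 48 hours after transfection, one well of a 12-well plate per replicate, and profiled by the native protocol without crosslinking. TEX13A was therefore present at the level its plasmid gave, in a cell type that is not its own, and every other ZFP was expressed in the same way. Each library was called against the mock IP of its batch, so libraries of a batch share a control. The labels and methods do not tell which lists had a control in common. Sharing between lists below may include what such a control adds, and this was not tested.

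TEX13A is an X-linked gene known from germ cells of the testis. Its protein carries a zinc finger of the RanBP2 type, a fold that in relatives such as ZRANB2, RBM5, RBM10, EWSR1 and TAF15 contacts single-stranded RNA. The word AGGTAA holds the GGU core that such fingers read in RNA. Cut&Run records DNA that was near the protein, through direct or indirect contact.

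The sequences shown were read at or beside regions of both replicates. They were GC-rich promoter DNA, a tandem repeat and a satellite array, kinds of sequence on which such regions lay. The start sites were picked by hand and not by rank. Runs of TOMM40 and KLC2 were also read and are not shown. That of TOMM40 held none of the words marked below, and that of KLC2 held GGGCGGG. The runs of KDM8 and THAP9 do not contain the summit. Each run was read from hg38, on the strand of the gene for start sites, and lies outside annotated exons, within the region or up to 50 bases beyond it. Capitals mark matches, on either strand, to 10 words of known factors in the start sites (those shown hold the E-box CACGTG, the NRF1 word GCATGCGC, the ETS word CCGGAAG, the SP1 word GGGCGGG or the NFY word CCAAT) and to the pentamer GGAAT in the satellite. RBX1 lies at chr22:40951237-40951346, KDM8 at chr16:27203866-27203974, FBXL12 at chr19:9819271-9819380 on the minus strand, PPP2R3A at chr3:135965850-135965959, and THAP9 at chr4:82900961-82901054. The THAP9 region ends at 82901004, and the word marked in its run lies past that end. The repeat 8584 bp from the IL17REL start, inside the gene body of TTLL8, was read at chr22:50021562-50021671, and the satellite at chr20:31075387-31075496.
RBX1: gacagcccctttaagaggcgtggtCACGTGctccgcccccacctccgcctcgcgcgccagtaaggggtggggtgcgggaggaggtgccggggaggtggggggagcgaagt
KDM8: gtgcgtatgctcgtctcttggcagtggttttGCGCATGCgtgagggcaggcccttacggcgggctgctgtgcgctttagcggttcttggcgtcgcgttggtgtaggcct
FBXL12: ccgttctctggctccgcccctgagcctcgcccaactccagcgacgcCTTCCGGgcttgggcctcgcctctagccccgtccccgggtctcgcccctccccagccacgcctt
PPP2R3A: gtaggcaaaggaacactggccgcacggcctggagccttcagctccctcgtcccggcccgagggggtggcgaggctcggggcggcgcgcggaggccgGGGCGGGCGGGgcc
THAP9: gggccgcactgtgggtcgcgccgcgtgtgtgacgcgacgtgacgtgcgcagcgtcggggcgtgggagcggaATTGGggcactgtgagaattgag
repeat near IL17REL: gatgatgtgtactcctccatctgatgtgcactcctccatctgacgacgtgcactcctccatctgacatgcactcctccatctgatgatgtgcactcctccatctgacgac
satellite: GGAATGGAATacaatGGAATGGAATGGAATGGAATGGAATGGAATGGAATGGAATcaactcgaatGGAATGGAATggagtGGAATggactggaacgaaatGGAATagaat

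The label was checked first on the TEX13A gene, since plasmid DNA in the cells reads as its own exons. The region at chrX:105218965-105220423, which covers the annotated coding sequence (hg38, 105218967 to 105220397), had a fold of 4289 in replicate 1 and 4580 in replicate 2. The EEF1A1 region at chr6:73520048-73521255, the human source of the plasmid's EF1-alpha promoter, had folds of 3803 and 3668 and was found in both replicates of all 35 other ZFPs. A region on an exon of TEX13B (chrX:107981421-107982131) had folds of 30.0 and 18.1 and lay in no list of another ZFP. TEX13B is a paralog of TEX13A, and by blastn the region aligned to the TEX13A exons over 510 bases at 86.7% identity and over a further 190 bases at 81.1%, so reads of the plasmid and of TEX13B cannot be told apart there with certainty. These 3 regions were left out of everything below.

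The same check was made for the other ZFPs, since TEX13A is compared with them. In 30 of the 35 a coding exon of the named gene stood at 20-fold or more in both lists, as it did for TEX13A. Among the other 5, MBNL1 had it in replicate 2 alone (2097-fold) and TRIM55 in replicate 1 alone (1382-fold). ZC3H3 had it at 3029-fold in replicate 1 and 3.99-fold in replicate 2. For U2AF1 and ZMAT5 no list held a peak on a coding exon of the named gene. Both lists labelled U2AF1 held 7 peaks on coding exons of USP39, a gene of the spliceosome, at up to 2716-fold and 3226-fold, so they do not bear out their label. Recurrence of peaks at and away from start sites, and of the shorter list, is given with and without these 5 ZFPs. Other values below include them unless stated.

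Exons of other ZFPs of the series were also called in the TEX13A lists, and the source of these reads was not tested. A region on a ZNF2 exon (chr2:95181279-95182071) had folds of 8.14 and 6.47, and one on a CNOT4 exon (chr7:135393998-135394397) had folds of 4.07 and 4.91. ZNF2 and CNOT4, a subunit of the CCR4-NOT deadenylase, were themselves ZFPs of the series. Replicate 2 further held a peak on a BRCA1 coding exon at 7.86-fold. In turn the TEX13A coding exon was called in both CNOT4 lists, with folds of 5.83 and 8.06, in replicate 1 of LIN28B with a fold of 8.04 and in replicate 2 of ZC3H3 with a fold of 3.99. All of these folds were far below that of the TEX13A gene in its own lists. The 2 exon regions were kept among the 229 as a class of their own.

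The 229 regions fell mainly on repeated sequence. Satellite-like regions, whose summit window (100 bases to each side of the summit) held GGAAT on either strand 5 times or more, numbered 100. Another 47 aligned to ribosomal DNA and 12 to the mitochondrial genome, so these classes together made up 159 regions or 69.4%. Copies of a repeat are counted as separate regions in these numbers. Start sites of protein-coding genes, counted within 1 kb of a peak's edge, held 39 regions, start sites of other genes held 4, places farther away held 17 and other sequence on unplaced or random contigs held 8. The order was different among all peaks. In replicate 1 the start sites of protein-coding genes took 988 of 1669 peaks (59.2%) and in replicate 2 they took 277 of 1028 (26.9%), whereas satellite-like peaks took 121 (7.25%) and 207 (20.1%).

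Most start-site peaks were therefore in one replicate only. Of the 988 in replicate 1, 39 (3.95%, exact binomial 95% CI 2.82 to 5.36) overlapped a peak of replicate 2, and of the 277 in replicate 2, 39 (14.1%, CI 10.2 to 18.7) overlapped one of replicate 1. Peaks away from start sites recurred in 17 of 372 cases (4.57%, CI 2.68 to 7.22) from replicate 1, near the share of start-site peaks, and in 16 of 337 (4.75%, CI 2.74 to 7.596) from replicate 2, below it. Satellite-like peaks recurred in 110 of 121 cases (90.9%, CI 84.3 to 95.4) from replicate 1 and in 48.8% of 207 (CI 41.8 to 55.8) from replicate 2. Ribosomal DNA peaks recurred in 47 of 61 (77.0%) and 83 of 105 (79.0%), and mitochondrial ones in 12 of 15 (80.0%) and 15 of 16 (93.8%). These intervals cover counting error only and take each peak as independent, which peaks of the same repeat array need not be. With this limit, the intervals of start-site peaks do not reach those of the satellite-like, ribosomal DNA or mitochondrial peaks in either replicate. Start-site peaks were also narrower, with median widths of 282.5 and 186 bp against 431 and 407 bp for satellite-like peaks. Ribosomal DNA peaks had 785 and 357 bp and mitochondrial ones 497 and 322 bp, and width was not adjusted for.

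**Figure D1:**
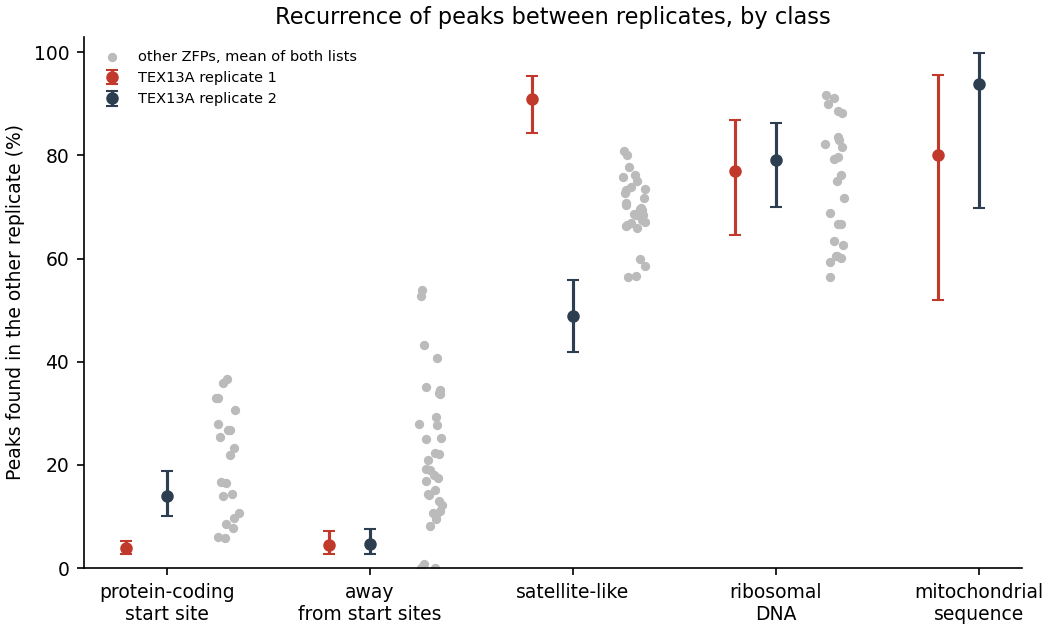
Percent of TEX13A peaks (vertical axis) that overlap a peak of the other replicate, by class (horizontal axis), with exact binomial 95% intervals, beside the mean of both lists of each other ZFP that had at least 20 peaks of that class in each list (grey points, none for mitochondrial sequence). Start-site peaks of TEX13A recurred in 3.95% and 14.1%, and satellite-like peaks in 90.9% and 48.8%.

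Against the other ZFPs, the recurrence of repeated sequence was ordinary and that of start sites was low. Averaged over both lists, 69.9% of satellite-like TEX13A peaks recurred, where the 30 other ZFPs with enough peaks ranged from 56.4% to 80.8% with a median of 69.5%. For ribosomal DNA the mean was 78.0%, with a median of 75.6% over 24 other ZFPs. For start sites the TEX13A mean was 9.01%, and the 21 other ZFPs ranged from 5.89% (MBNL1) to 36.7% (CTCF) with a median of 22%, of which 17 lay above TEX13A and 4 below. Without MBNL1 and the library labelled U2AF1 the range began at 5.95% (CNOT4), and 16 of 19 lay above. For peaks away from start sites it was 4.66% against a median of 19.1%, with 31 of 34 ZFPs above, and without the ZFPs that lacked their own gene all 30 lay above, from 8.11% (CPSF4). List length was not adjusted for. Some ZFPs with start-site counts like those of TEX13A (988 and 277 peaks) also had low recurrence there. The mean was 8.64% for RNF113A (715 and 122 peaks), below TEX13A, and 9.82% for SNRPC (712 and 92). It was 14.3% for ZMAT3 (769 and 131) and 16.5% for CPSF4 (1062 and 438). Low recurrence of start-site peaks is thus not particular to TEX13A. These class values are descriptions and were not tested.

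The strength of the calls differed between the same classes. At a q of at most 0.001 in both replicates, 12 of the 39 start-site regions (30.8%) and 7 of the 17 regions away from start sites (41.2%) remained, against 82 of 100 satellite-like, 44 of 47 ribosomal DNA and 12 of 12 mitochondrial regions. The median −log10 q of start-site peaks was 2.48 in replicate 1 and 2.44 in replicate 2, and that of satellite-like peaks was 7.20 and 7.17. Folds ran the other way. Start-site peaks had a median fold of 4.88 and 4.89, and satellite-like peaks 2.88 and 3.40, so that start-site peaks had the higher fold and the weaker q. The 988 start-site peaks of replicate 1 took 218 distinct fold values and 89 of them stood at exactly the commonest value, 4.88. In replicate 2, 277 peaks took 102 values and 30 stood at 4.09.

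Within start sites, recurrence rose with fold. With the peaks of replicate 1 split by fold into 4 groups of 247, 22 of the highest group (5.56 to 11.6) were found in replicate 2, followed by 10, 5 and 2 in the lower groups, or from 8.91% to 0.810%. In replicate 2 the groups gave 15 of 70, 10 of 69, 9 of 69 and 5 of 69, from 21.4% to 7.25%. High fold alone did not secure a second call, since the start-site peaks with the highest fold in each list, at 11.6 and 10.0, were in that list only.

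**Figure D2:**
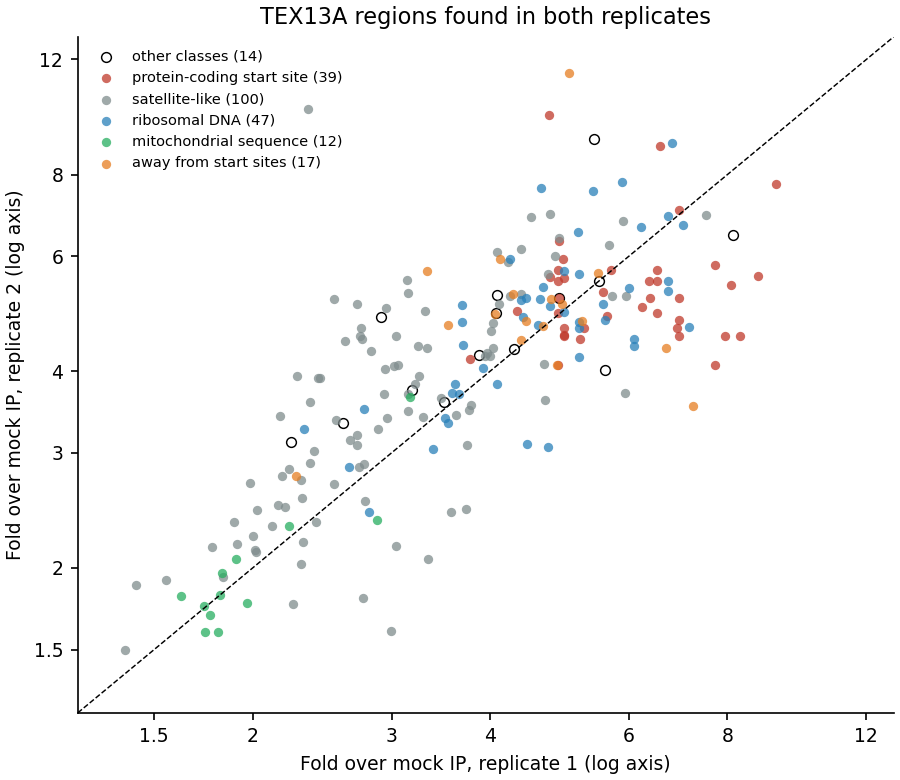
Fold over mock IP in replicate 1 (horizontal, log axis) against replicate 2 (vertical, log axis) for the 229 regions found in both replicates, one point per region, with the line of equal fold dashed. Satellite-like regions spread along the line and 79 of 100 lie above it, while the 39 start-site regions form a block with no order.

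Over the 229 regions the folds of the replicates had a Spearman correlation of 0.75, a description across regions that share libraries. It was 0.79 over the 159 satellite-like, ribosomal DNA and mitochondrial regions and 0.02 over the 39 start-site regions, which cover a narrow range of folds. Satellite-like regions had the higher fold in replicate 2 in 79 of 100 cases, and start-site regions had it in replicate 1 in 25 of 39. The higher fold of a region exceeded the lower by a median factor of 1.19 and at most by 4.29.

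The 39 start-site regions lay on 18 chromosomes, none on X, and covered an annotated TSS in 31 cases. In 12 cases more than one protein-coding gene started within 1 kb, so the regions reached 53 nuclear genes. In replicate 1 their summits lay between -484 bp (upstream) and 303 bp (downstream) of the nearest protein-coding TSS, 34 of 39 within 300 bp, with 22 upstream. In replicate 2 they lay between -572 bp and 289 bp, 36 of 39 within 300 bp, with 20 upstream. Of all start-site summits, recurring ones included, 77.9% in replicate 1 and 73.6% in replicate 2 were within 300 bp. Both shares were below those of the recurring summits, a difference that was not tested.

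**Figure D3:**
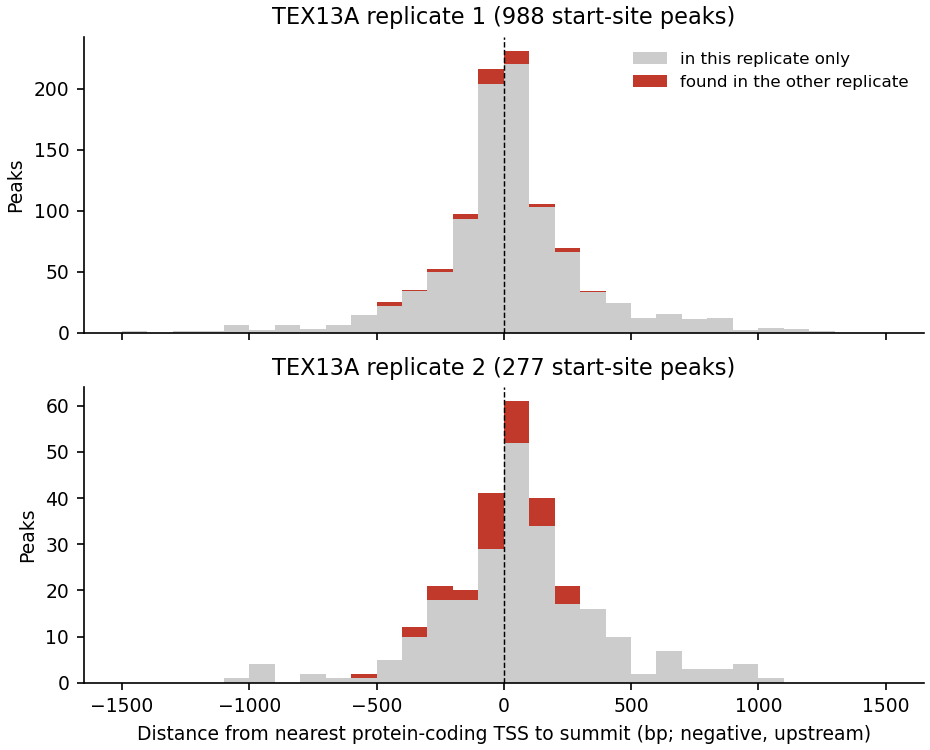
Distance from the nearest protein-coding TSS to the peak summit (horizontal axis, bp, negative upstream) for the start-site peaks of replicate 1 (988, upper) and replicate 2 (277, lower), counted in bins of 100 bp, with peaks found in the other replicate in red. Both lists center on the TSS, and the 39 recurring peaks of each list sit inside the same spread.

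The start-site region with the highest lower fold was that of RBX1, the RING subunit of cullin-RING ubiquitin ligases, with folds of 9.21 in replicate 1 and 7.75 in replicate 2 (chr22:40951250-40951660). FBXL12 followed at 6.95 and 7.07 (chr19:9819196-9819570). Its product is an F-box protein, a substrate receptor of the SCF ligases in which RBX1 works, and a gene of the SNORA70 snoRNA family also starts within 1 kb. The NFE2L2 region, at the gene of the transcription factor of the oxidative stress response, had folds of 6.58 and 8.83, and KDM8, which encodes a JmjC-domain dioxygenase, had 7.72 and 5.82. Of these 4 regions, KDM8 stood lowest within a list, above 89.98% of the peaks of replicate 2.

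The other leading regions are given by the role of their genes and not by rank. CCNT2, a cyclin of the elongation factor P-TEFb, had folds of 6.36 and 5.50. MIER1, a chromatin corepressor, had 4.95 and 5.95. BACH1, a heme-binding repressor, had 4.77 and 5.58. The region 213 bp from MAZ, itself a ZFP of the series, had 8.09 and 5.42, and the kinesin gene KIF22 also starts there. The transposase-derived gene THAP9 and the COPII coat gene SEC31A shared a region with folds of 6.95 and 5.18, and PTBP3, an RNA-binding protein of the polypyrimidine tract family, had 6.24 and 5.02. Of these, the MAZ region showed the widest gap between replicates.

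Signaling genes gave similar values. PPP2R3A, a regulatory subunit of the phosphatase PP2A, had folds of 6.51 and 5.72. ABL1, a tyrosine kinase, had 4.88 and 5.50. The region shared by PRKACB, a catalytic subunit of protein kinase A, and its divergent transcript PRKACB-DT had 4.88 and 4.91. All 3 were below the RBX1 region in both replicates. Transport and trafficking were present with KLC2, a kinesin light chain (6.51 and 5.50), VPS13A, a lipid transfer protein (6.95 and 4.796), and AHI1, a protein of the ciliary transition zone. AHI1 had a fold of 8.74 in replicate 1 and 5.59 in replicate 2.

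Mitochondrial genes of the nucleus made up another group. TOMM40, the channel of the outer membrane import complex, had folds of 5.56 and 5.29. UQCC2, an assembly factor of complex III, had 4.96 and 5.56. GTPBP3, which takes part in tRNA modification in mitochondria, had 4.89 and 5.18, and MRPL55, a mitochondrial ribosomal protein, had 4.89 and 6.34. Members of this group were chosen by their rank in fold and not as a list, so their number is not compared with other genes. None of the regions in this group had a q of at most 0.001 in both replicates. The others described among the 25 leading regions were NOMO3 (5.69 and 5.72), DHRS13 (6.38 and 5.18), SERP1 with SELENOT (4.88 and 5.72) and HTT with its antisense transcript HTT-AS (5.63 and 4.85). NOMO3 has near-identical copies and one of them, NOMO1, was also found with folds of 4.33 and 4.95, so reads may be divided between the copies.

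**Figure D4:**
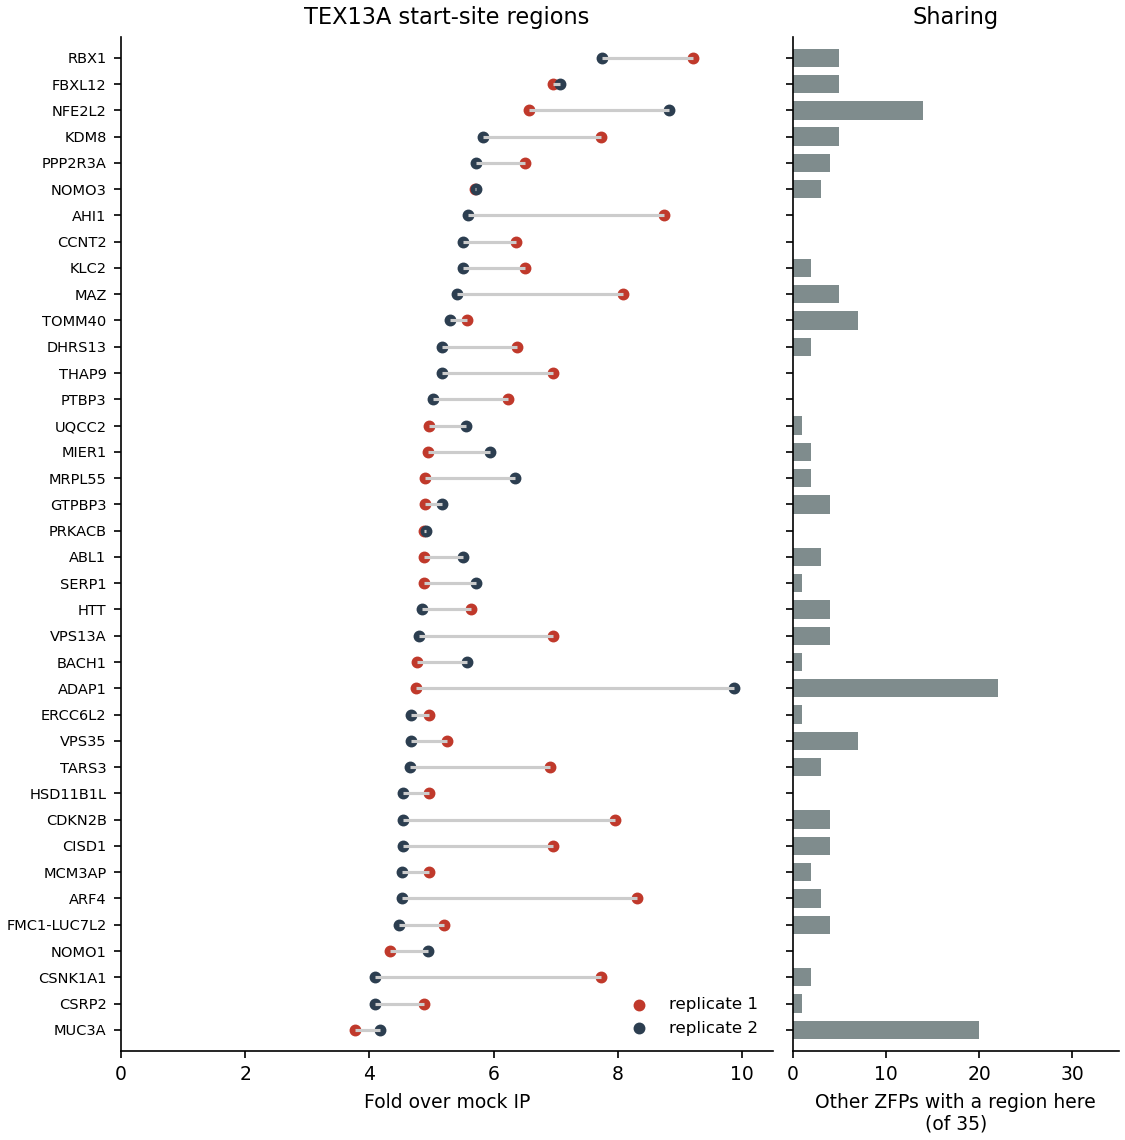
Start-site regions of both replicates (38 of the 39) named by nearest protein-coding gene, ranked by the lower fold, with the fold over mock IP in replicate 1 (red) and replicate 2 (dark) on the left and, on the right, the number of the 35 other ZFPs that had a region of both replicates there. Most regions lie between 4 and 9, and 3 of them, NFE2L2, ADAP1 and MUC3A, were shared with 14, 22 and 20 other ZFPs.

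Start-site regions of both TEX13A replicates were covered by other ZFPs in larger shares than the peaks of one replicate, a difference that was not tested. Of the 39, 32 (82.1%) overlapped a region of both replicates of at least 1 other ZFP, and all 39 overlapped a peak of some other list, with a median of 9 ZFPs. Of the 949 start-site peaks in replicate 1 only, 364 (38.4%) overlapped a region of both replicates of another ZFP, and of the 238 in replicate 2 only, 90 (37.8%) did. A peak of some other list overlapped 785 (82.7%) and 178 (74.8%) of them, with medians of 3 and 2 ZFPs. The merged regions were also wider, with a median of 431 bp, against 282.5 and 186 bp for all start-site peaks of replicates 1 and 2. Width was not adjusted for. The ZFPs that shared most were those with long lists. APEX2, with 1371 regions of both replicates, covered 24 of the 39 (61.5%), against 20.1% of the peaks in replicate 1 only and 23.1% of those in replicate 2 only. CISD1 and ZNF22 covered 17 each, G2E3 15, GIN1 12 and CTCF 10. The start that CISD1 shares with IPMK was among the 39, with folds of 6.95 and 4.54. That region also covers a coding exon of CISD1, a tagged gene of the series, so plasmid and promoter cannot be told apart there.

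A few start-site regions were shared very widely. ADAP1, a GTPase-activating protein, had folds of 4.75 and 9.87 and was called in both replicates of 22 other ZFPs. MUC3A, a membrane mucin, had 3.77 and 4.18 and was called for 20. Their summit windows held 45.8% and 52.2% GC, where the median of the 39 was 69.2%. Among the 3 regions called for 10 or more ZFPs, NFE2L2, at 74.1% GC, was the exception.

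Start-site regions of both replicates that no other ZFP had in both replicates numbered 7. They were AHI1, CCNT2, THAP9, PTBP3, PRKACB, HSD11B1L (4.96 and 4.55, a region shared with MICOS13 and RPL36) and NOMO1. Each was present in single lists of other ZFPs, 5 for AHI1, 7 for CCNT2, 5 for THAP9, 6 for PTBP3, 3 for PRKACB, 4 for HSD11B1L and 2 for NOMO1. No start-site region was thus found in TEX13A lists alone. Outside start sites, 2 more regions were without a partner, LINC01012 and the repeat near IL17REL.

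The repeat near IL17REL (chr22:50021349-50021884, folds of 4.06 and 4.89) was the single region among the 229 that overlapped no peak of any other ZFP. By this count 99.6% of TEX13A regions had a partner, against a mean of 98.1% for the other ZFPs. A region without a partner is thus not particular to TEX13A. The repeat was singled out after its values were seen. In its 536 bases the 12-base word ctcctccatctg occurred 25 times at a median spacing of 19 bases, as can be read in the sequence shown above. It did not align to the TEX13A exons by blastn at an E-value of 1e-10.

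Of the regions away from start sites, the leading one lay between 115887964 and 115888814 on X, inside the lncRNA genes DANT1 and DANT2 at the DXZ4 macrosatellite, with folds of 5.48 and 5.66. A region in an intron of PRKCA (chr17:66798628-66799393) had 5.03 and 11.4, the widest gap between replicates in this class, and was called for 15 other ZFPs. A region in an intron of PPP2R2C (chr4:6511924-6512566) had 4.93 and 5.08. The others among the first 8 were 9361 bp from RPL23AP82 (5.23 and 4.78), 8460 bp from ENSG00000283360 (4.78 and 5.16), 6324 bp from LINC01012 (4.67 and 4.69), 1193073 bp from LINC01691 (4.44 and 4.78) and 1483721 bp from WEE1P2 (4.38 and 4.46). Except for LINC01012, each of the 8 was called in both replicates of between 2 and 27 other ZFPs.

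Satellite-like regions were spread over few chromosomes, 29 on chromosome 4, 19 on chromosome 1, 14 on chromosome 10 and 9 on chromosome 20. Their windows held a median of 22 pentamers and at most 33. The highest lower fold, 6.95, was at chr2:89820063-89820829, with 7.52 in replicate 1 and 6.95 in replicate 2. The 6 regions called for the most other ZFPs, 31 each, were all of this class. Another 8 were called for 29, of which 7 were satellite-like and 1, at chr5:10292-11638 with folds of 4.27 and 5.25, lay away from start sites. One of those 6, at chr17:21975804-21977127, had folds of 4.84 and 5.999. Another, at chr4:49107149-49110187, had 3.06 and 4.09. Reads from such arrays can map to many places, so a region gives the kind of sequence rather than its exact place.

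Ribosomal DNA is the repeated gene array from which RNA polymerase I makes the precursor of the 18S, 5.8S and 28S rRNAs. TEX13A had 47 regions there, 24 on chromosome 21 and the rest on GL000220v1 (10) and KI270733v1 (13). On chromosome 21, 23 of them lay around 4 annotated 5.8S genes, between -7703 bp and 7334 bp of the start of the gene. Each of the 4 genes was covered by one region, 6 regions began more than 3500 bp before, and 12 began more than 1300 bp after, so regions lay on both sides of the 5.8S gene. Several regions stood at like distances from different 5.8S genes, and reads of such copies can map to more than one. The 47 regions therefore count some places of the repeated unit more than once. The strongest was at chr21:8437954-8438995, with folds of 6.80 and 8.94, and that over RNA5-8SN2 (chr21:8210748-8213189) had 6.72 and 6.92. All 47 were shared with at least 11 other ZFPs, with a median of 16. The mitochondrial regions were weaker, with folds from 1.62 to 3.17 in replicate 1 and from 1.60 to 3.65 in replicate 2, and were shared with 10 to 17 other ZFPs.

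The ZFPs most alike to TEX13A by overlap of regions were alike through repeats. By the Jaccard index of regions the first was ZMAT3 (0.45), with the library labelled U2AF1 (0.42) and WBP4 (0.41) next. ZMAT3 covered 130 of the 229 TEX13A regions (56.8%), and 109 of its own 171 regions (63.7%) were covered in turn. All 47 ribosomal DNA regions and all 12 mitochondrial regions were shared with ZMAT3, as were 4 of the 39 start-site regions. The library labelled U2AF1, in which no U2AF1 exon was called, covered 75 of 100 satellite-like regions and 3 start-site regions. WBP4, a spliceosomal protein, covered 46 of 47 ribosomal DNA regions and 1 start-site region. RBM5, the other ZFP in the series with a RanBP2-type finger, had a Jaccard index of 0.15 and covered 43 TEX13A regions (18.8%), of which 40 were satellite-like, 0 were ribosomal DNA and 1 was a start site. ZNF2, with 111 regions beside the 112 of RBM5, covered 96 TEX13A regions.

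Whether TEX13A differed from the other ZFPs was tested for 6 measures with a two-sided exact permutation test, which gave the TEX13A label to each ZFP in turn and cannot go below p = 0.0278 with 36 ZFPs. None passed after Benjamini-Hochberg adjustment over the 6 and none had an unadjusted p under 0.05. The share of the shorter list found in the other replicate was 26.5%, against a mean of 46.7% over the others (SD 19.2, n = 35 ZFPs, exact permutation p = 0.333, adjusted p = 0.767). Of the 6 ZFPs below TEX13A, 4 were among those that lacked their own gene in a list, and without all 5 of these the others had a mean of 51.8% (SD 14.3, n = 30 ZFPs, exact permutation p = 0.129), a choice made after seeing the data. The share of peaks within 1 kb of any TSS was 66.7% in replicate 1 and 35.9% in replicate 2, a mean of 51.3% against 32.8% for the others (SD 23.2, exact permutation p = 0.639, adjusted p = 0.767). This gap of 30.9 percentage points between the replicates was larger than that of 32 of the 35 other ZFPs, whose median was 9.45, and only RNF113A, SNRPC and ZMAT3 had a wider one. The share of regions found for at least 1 other ZFP was 96.1%, or 220 of 229, against 89.5% (SD 12.4, n = 33 ZFPs with regions to count, exact permutation p = 0.559, adjusted p = 0.767).

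The remaining measures concern the sequence of the peaks. Satellite-like peaks made up 7.25% and 20.1% of the lists, a mean of 13.7% against 27.4% (SD 18.2, exact permutation p = 0.639, adjusted p = 0.767). With satellite-like peaks left out, AGGTAA was present on either strand in 5.24% and 2.69% of summit windows, a mean of 3.97% against 4.44% in the others (SD 2.28, exact permutation p = 0.806, adjusted p = 0.806). The median GC content of those windows was 66.7% and 64.2%, a mean of 65.4% against 58.2% (SD 7.96, exact permutation p = 0.444, adjusted p = 0.767). The TEX13A values thus lay inside the range of the other ZFPs for all 6 measures.

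**Figure D5:**
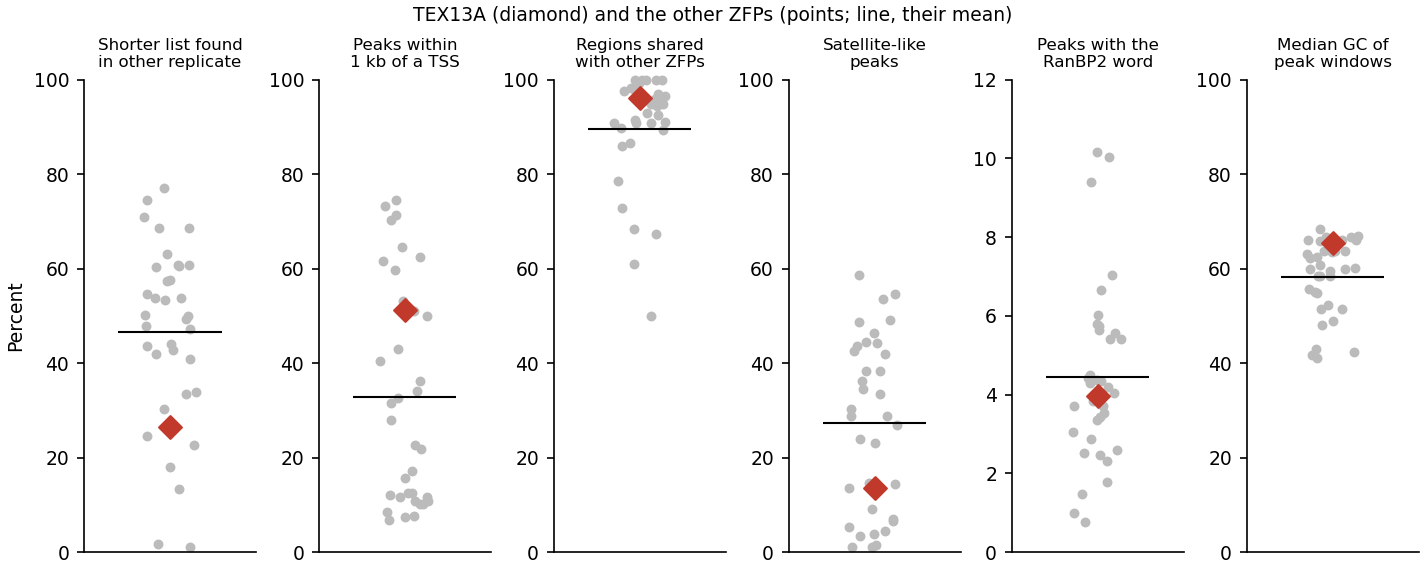
The 6 measures tested, one panel each on a percent axis (0 to 12 for the AGGTAA word, 0 to 100 elsewhere), with TEX13A as a diamond, every other ZFP as a point and the mean of the others as a line. The diamond lies below the line at 26.5% for replicate recurrence and above it at 51.3% for peaks near a TSS, and in every panel it lies among the points.

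Words of known promoter factors were counted in the start-site windows, chosen with the values known and given as descriptions. Windows of regions of both replicates, also for their class and GC content, were centered on the summit of the highest-fold peak in replicate 1. The counts for the 39 regions therefore describe replicate 1 summits. Each share is set beside that in windows around all protein-coding gene starts and, second, in the start-site regions of both replicates of the other ZFPs. GGGCGGG, read by SP1 and KLF factors, was on either strand in 14 of the 39 windows (35.9%), above the 33.1% of all gene starts and below the 44.02% of the other ZFPs. GCATGCGC, the core of the NRF1 site, was in 5 (12.8%) against 2.995% and 4.56%, and in 5.90% of the peaks of replicate 1 only and 0.840% of those of replicate 2 only. CCGGAAG of the ETS family was in 5 (12.8%) against 10.2% and 8.72%, and CCAAT of NFY in 6 (15.4%) against 26.0% and 23.4%. AGGTAA was in 3 (7.69%) against 6.49% and 3.75%. CACGTG, the E-box, was in 2 windows (5.13%) against 5.88% and 6.04%, and TATAAA in 1 (2.56%) against 7.09% and 0.884%. AAGATGGCG of YY1 was in 1 window (2.56%) against 2.04% and 1.72%, and the word of ZNF143 and THAP11 in 1 against 1.79% and 1.43%. TGACGTCA, the CRE, was in 0 against 1.87% and 0.979%. The windows were rich in CpG, with an observed over expected ratio above 0.6 in 37 of 39 (94.9%), compared with 61.2% of all gene starts and 90.4% of the start-site regions of the other ZFPs.

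At the level of genes, 66 of 20020 protein-coding genes (0.33%) had a region of both replicates within 1 kb of a TSS, 53 of them nuclear and 13 encoded by mitochondrial DNA. A peak of at least 1 replicate was near 1430 genes (7.14%), 1175 in replicate 1 and 342 in replicate 2. The 2 gene sets had 87 genes in common, 7.40% of the first and 25.4% of the second. Over all genes, 342 of 20020 were near a peak of replicate 2 and 1175 of 20020 near one of replicate 1. Both overlaps thus exceeded the share over all genes, which was not tested. At 22 of the 87 genes the peaks of the replicates did not overlap in a shared region.

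Gene lists of 21 kinds were counted beside these shares. Regions of both replicates reached 1 gene in each of 6 lists and none in the other 15. They were RPL36 of 83 cytosolic ribosomal proteins, MRPL55 of 78 mitochondrial ones, ORC6, a subunit of the origin recognition complex whose start is shared with VPS35 (folds 5.26 and 4.66), of 90 replication and cell cycle genes, ERCC6L2 (4.96 and 4.66) of 53 DNA repair genes, FBXL12 of 150 genes of the ubiquitin system, and the SNORA70 family gene of 840 snoRNA genes. A single gene is too few to read against 0.33%. Genes with a peak in at least 1 replicate were counted next. DNA repair genes reached 7 of 53 (13.2%) and heat shock proteins and co-chaperones 11 of 86 (12.8%). Respiratory chain and ATP synthase genes reached 12 of 104 (11.5%) and splicing factors and hnRNPs 10 of 88 (11.4%). Proteasome subunits (5 of 50) and the ubiquitin system (15 of 150) each reached 10%. C2H2 zinc finger genes reached 39 of 538 (7.25%) and general transcription factors and Mediator 4 of 86 (4.65%). Over all protein-coding genes, not matched for CpG content, the share was 7.14%, and no list was tested against it. Testis and germ cell genes reached 3 of 169 (1.78%), namely PIWIL4, TEX46 and TEX54, and the 17 immediate early genes reached 0. Of the relatives with a RanBP2-type finger, EWSR1 alone of 11 had a peak, in replicate 2. As 949 of the 988 start-site peaks of replicate 1 and 238 of the 277 of replicate 2 were in that replicate only, these shares rest mostly on peaks that were not found again.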

How the data were processed

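The authors trimmed reads with Trimmomatic (0.36), aligned them to hg38 with Bowtie2 (2.3.5.1), removed duplicates with Picard (0.1.8) and called narrow peaks per library with MACS2 (2.2.7.1) against the V5 mock IP of the batch, as their methods and the submitters' processing notes give them. The deposited lists hold, per peak, a fold over mock IP (a linear ratio at the summit), −log10 p and −log10 q values and a MACS2 score, and no read counts. The methods give the depth aimed for, and the depth reached by each library behind a list is unknown. The 72 lists held from 15 to 8702 peaks. The score and the p-value were not used further.

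Peaks were placed with GENCODE 44, overlapped at 1 bp or more, and classed from a window of 100 bases to each side of the summit by pentamers, by alignment to ribosomal DNA of chromosome 21 and to the mitochondrial genome with minimap2 (2.31-r1302; at least 50% of the window at 90% identity or more), and by the distance from the peak's edge to the nearest TSS. Likeness to the TEX13A exons was searched with blastn (2.17.0). Shares have exact Clopper-Pearson 95% intervals. With n = 2 replicates no test within TEX13A was made, and ZFPs were the unit of the exact permutation tests, each with the mean of both lists. Scripts were tested on simulated peaks. The replicates are separate wells, so their spread may not cover that between cultures.

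Regions were named by rank of the lower fold: the first 25 at protein-coding start sites, the first 8 away from any start site, the first 8 that no other ZFP had in both replicates, the 8 called for the most ZFPs, and every region at a listed gene. A single region among these was left out of the text. The members and lists were chosen with earlier results of these data known. Alternatives were stricter q limits, shared bases of at least 50% of each peak, other distance limits, pentamer counts and windows, each replicate left out and, added after seeing the data, the ZFPs left out whose own coding exon was not at 20-fold or more in both lists.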

Additional observations from a re-analysis of the deposited data

How the results depend on the processing

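All 6 tested measures stayed above an exact permutation p of 0.05 under every alternative run, so no alternative made a call. The direction turned for the AGGTAA share in windows of 50 bases to each side (2.35% against a mean of 2.00% in the others), with satellite-like peaks kept (3.66% against 3.65%) and with replicate 1 alone, as the TEX13A value ranged from 2.69% to 5.24% between single replicates. It also turned for the share of regions found for other ZFPs when single lists took the place of regions of both replicates, with values from 42.5% to 56.1%, both below the others. Single replicates gave 35.9% to 66.7% for peaks near a TSS, 7.25% to 20.1% for satellite-like peaks and 64.2% to 66.7% for GC. The 229 regions became 133 when shared bases had to cover 50% of each peak and 129 without satellite-like regions, fewer by construction. The 66 genes became 26 at a q of at most 0.001 and 1430 with peaks of at least 1 replicate, and 342 to 1175 with one replicate alone. No paired analysis was possible because replicate numbers of different ZFPs name separate wells with no stated link, and the permutation moves whole ZFPs. Without read counts, weak peaks near the calling limit in one replicate cannot be told apart from absent ones in the other.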
